A study of Mus musculus with 69 samples.

Results

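NRCWE-030 and NRCWE-025 are 2 titanium dioxide nanomaterials (NMs). Lungs of mice that received one or the other were compared directly at the highest dose, 28 days after instillation. The comparison holds 9 of the 69 arrays of the series: all those whose titles give the day as 28 and the dose as 162 µg, 5 for NRCWE-030 and 4 for NRCWE-025. No control enters it. The mice were female C57BL/6 animals without any genetic change named in the labels, 5 to 7 weeks old on arrival and housed for 1 to 3 weeks before a single intratracheal instillation of 162 µg of one material, dispersed in water with 2% serum. Vehicle mice of day 28 (5 arrays) received the dispersion medium alone and serve here as background. RNA came from a small frozen piece of whole lung, 1 mouse per array, and was labelled with Cy5, while a commercial pool of mouse reference RNA was labelled with Cy3 on each array with no dye swap. All values below are therefore log2 ratios of lung to reference, and a difference of 1 between groups on this scale is a 2-fold difference. The labels do not say what distinguishes the NMs in size, coating or crystal form.

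The 9 arrays held between 55.8% and 72.26% of spots well above background in Cy5, with a mean of 66.7% ± 3.70 (SD, n = 5) for NRCWE-030 and 66.0% ± 7.19 (SD, n = 4) for NRCWE-025 (p = 0.865, two-sided exact permutation test over 126 splits, of which the smallest possible p is 0.00794). No spot was saturated. The correlation between arrays across genes was 0.949 to 0.981 within NRCWE-030, 0.944 to 0.980 within NRCWE-025 and 0.937 to 0.982 between the materials, so the range between materials took in that within either of them. Lung markers were well above background on all 9 arrays: Sftpc, the surfactant protein of alveolar type 2 cells, lay between 6.44 and 8.07, and Scgb1a1, the secretoglobin of club cells, between 6.03 and 7.75. Replicate 2 of NRCWE-030 had the fewest spots above background in Cy3 (53.9%) and replicate 4 of NRCWE-025 the fewest in Cy5 (55.8%). The number of genes called is given below with and without them.

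Of the 4 genes called between the materials, 3 belong to the circadian clock. In this oscillator, which runs in nearly every cell of the body including those of the lung, Arntl (also called Bmal1) and its partner Clock or Npas2 activate genes through E-boxes. The Per and Cry proteins made from some of these genes block their own activators, and the nuclear receptors Nr1d1 and Nr1d2 (REV-ERB alpha and beta) repress Arntl through sites that they share with the ROR receptors. The transcription factors Dbp, Hlf and Tef, which are controlled by the same loop, carry the rhythm to other genes through D-boxes. Levels of these transcripts rise and fall over the day, and the activator Arntl peaks at a time when Per2, Nr1d2 and Dbp are low. The mice were kept under 12 h of light, and the hour of tissue collection is not given in the sources used here. Whether that hour differed between the groups is not known, and its part in the differences between the materials was not tested.

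Of 18664 genes tested with limma, 4 were called at an adjusted p under 0.05, which is 0.0214% of all genes. Per2, Nr1d2 and Tspan4 were higher with NRCWE-030 (0.0161% of genes were called in this direction) and Arntl was lower (0.00536%). At an unadjusted p under 0.05 there were 503 genes, or 2.70%, against the 933 (5%) that chance would give. The 2 groups did not overlap for 99 genes that were higher (0.53% of all genes) and 78 that were lower (0.418%).

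Arntl was the gene called lower. Its values with NRCWE-030 were -0.71, -0.98, -0.90, -0.97 and -1.06, and with NRCWE-025 they were -0.20, 0.62, 0.61 and 0.59. Every array of NRCWE-030 lay below every array of NRCWE-025, and replicate 1 of NRCWE-025 stood apart from the other 3 of its group towards the values of NRCWE-030. The difference was -1.33 (SE 0.16, 95% interval -1.69 to -0.97, adjusted p = 0.0330 from limma), a level 2.51-fold lower.

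Per2, a repressor of Arntl and Clock, moved the opposite way. It stood at 0.91, 1.01, 1.18, 1.15 and 0.72 with NRCWE-030 and at -0.061, 0.12, 0.087 and 0.064 with NRCWE-025. The groups were separated by a gap larger than the range of either of them. The difference was 0.94 (SE 0.10, 95% interval 0.72 to 1.16, adjusted p = 0.0177), or 1.92-fold. This value is the median of 2 probes that disagreed in size: 1 probe differed by 1.68 between the materials and the other by 0.20.

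Nr1d2, which encodes the repressor REV-ERB beta, was at 1.81, 1.78, 1.82, 1.85 and 1.44 with NRCWE-030 and at 0.89, 0.84, 0.90 and 0.51 with NRCWE-025. Both groups were tight apart from their lowest array, replicate 5 of NRCWE-030 and replicate 4 of NRCWE-025. The difference was 0.96 (SE 0.11, 95% interval 0.71 to 1.20, adjusted p = 0.0279), or 1.94-fold. The call was lost with slide as a fixed block in a fit of day 28 (0.90, adjusted p = 0.0827), with scan day as a block (0.91, adjusted p = 0.152) and in the fit of all 14 groups (0.96, adjusted p = 0.134), and over all alternatives the adjusted p ranged from 0.00759 to 0.330.

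Tspan4 was the 1 called gene from outside the clock. It encodes a tetraspanin, a membrane protein that marks migrasomes, the vesicles that moving cells leave behind. Its values were -0.17, -0.080, 0.079, -0.078 and -0.12 with NRCWE-030 and -0.83, -1.02, -0.75 and -1.08 with NRCWE-025. The difference was 0.84 (SE 0.089, 95% interval 0.65 to 1.04, adjusted p = 0.0177), or 1.80-fold. Among the 25 tetraspanin genes measured, Tspan4 was the only one called, where 0.0214% of all genes were called. The median difference over the family was 0.039, against 0.0022 over all genes. The next members by size were Cd37, a leukocyte tetraspanin (-0.38, 95% interval -0.80 to 0.052), and Tspan11 (0.30, 0.12 to 0.48), and neither passed the test.

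**Figure D1:**
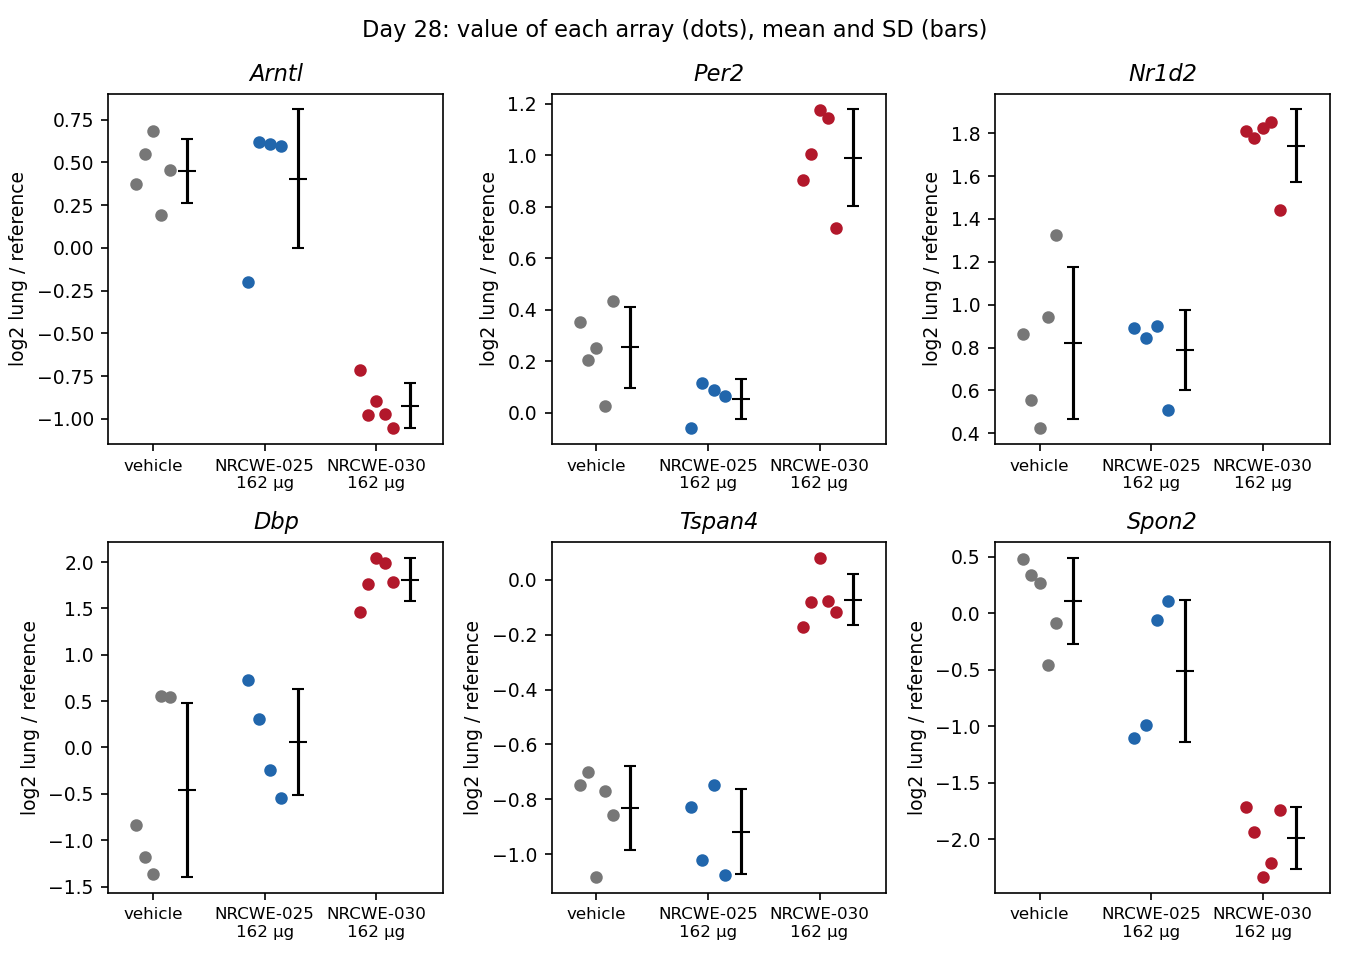
Values of 6 genes on each array of day 28, as log2 lung over reference (vertical axis), for vehicle (grey, 5 arrays), NRCWE-025 at 162 µg (blue, 4) and NRCWE-030 at 162 µg (red, 5). Dots are arrays and bars give the mean and SD. In all 6 panels the red dots lie apart from the blue ones, and for Arntl and Tspan4 the blue dots lie around the level of vehicle.

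Annotated promoters of Arntl, Nr1d2 and Tspan4 are shown because the clock acts on its genes through short motifs near the start of transcription. Windows of 250 bases before an annotated start (RefSeq, GRCm38.p6) were searched on both strands for the E-box CACGTG, for the D-boxes TTATGTAA and TTACGTAA, and for AGGTCA, the core of the sites of ROR and REV-ERB receptors. Windows were held for Arntl at chr7:113207215-113207464 on the plus strand, Nr1d2 at chr14:18239107-18239356 on the minus strand and Tspan4 at chr7:141476130-141476379 on the plus strand. Beside them stand 2 clock outputs described below, Dbp, at chr7:45704997-45705246 on the plus strand, for its large difference, and Tef, at chr15:81802423-81802672 on the plus strand, for its E-box. Each is written 5′ to 3′ on the strand of its gene, with matches in capitals.
Arntl: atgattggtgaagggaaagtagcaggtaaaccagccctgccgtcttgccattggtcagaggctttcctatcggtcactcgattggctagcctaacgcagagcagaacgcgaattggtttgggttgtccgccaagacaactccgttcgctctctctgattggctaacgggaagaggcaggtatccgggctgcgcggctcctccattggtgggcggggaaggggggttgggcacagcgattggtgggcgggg
Nr1d2: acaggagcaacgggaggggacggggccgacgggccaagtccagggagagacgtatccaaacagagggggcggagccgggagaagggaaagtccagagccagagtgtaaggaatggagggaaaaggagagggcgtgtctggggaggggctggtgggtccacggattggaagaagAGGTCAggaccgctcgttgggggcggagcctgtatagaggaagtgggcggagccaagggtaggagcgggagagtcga
Tspan4: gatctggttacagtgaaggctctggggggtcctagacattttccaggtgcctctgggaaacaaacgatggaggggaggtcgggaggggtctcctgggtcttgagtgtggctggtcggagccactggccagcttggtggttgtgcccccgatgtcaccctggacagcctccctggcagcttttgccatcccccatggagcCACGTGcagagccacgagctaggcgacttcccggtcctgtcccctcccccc
Dbp: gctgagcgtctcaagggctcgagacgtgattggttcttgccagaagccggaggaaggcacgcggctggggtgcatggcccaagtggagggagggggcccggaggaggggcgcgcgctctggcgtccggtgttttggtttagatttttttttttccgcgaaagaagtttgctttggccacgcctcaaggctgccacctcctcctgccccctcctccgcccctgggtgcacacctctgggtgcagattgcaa
Tef: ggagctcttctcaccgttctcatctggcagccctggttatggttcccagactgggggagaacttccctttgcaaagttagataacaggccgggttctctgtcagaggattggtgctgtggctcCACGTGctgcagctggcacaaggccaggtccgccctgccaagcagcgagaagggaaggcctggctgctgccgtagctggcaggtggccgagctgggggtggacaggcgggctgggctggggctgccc
Arntl, Tspan4 and Tef have 2 annotated starts each, and the window shown is the one with an E-box where either has one, otherwise the first. The window of Tspan4 held an E-box starting 51 bases before its downstream start, and that of Tef held one 127 bases before its upstream start. The window of Nr1d2 held AGGTCA 77 bases before the start, and those of Arntl and Dbp held none of the 4 motifs. Of 32851 windows in the table, 6.02% held the E-box, 14% AGGTCA, 0.819% TTATGTAA and 0.113% TTACGTAA. Of the 31 clock genes measured, 25 had a window, and the E-box was found in 8 of them (Bcl6, Bhlhe41, Ciart, Cry1, Lonrf3, Per1, Ppp1r3c and Tef), against 8.41% of 14841 tested genes with a window. AGGTCA was found in 5 of the 25 (14.3% of tested genes), TTATGTAA in 2 (0.822%) and TTACGTAA in 0 (0.162%). Of the 24 named genes described below, 19 had a window and 4 held the E-box. These matches are letters within a window and show nothing about binding in these lungs.

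Of the 19 core clock genes measured, 2 were called higher and 1 lower, and the median difference was 0.17 (0.0022 over all genes). The 95% interval of the difference left out 0 for 10 of the 19, with 7 above 0 and 3 below, against 2.70% of all genes. Beside Per2 in the repressing arm, Per1 differed by 1.08 (95% interval 0.40 to 1.75, not called), with values of 0.63, 1.06, 1.29, 1.38 and 0.048 for NRCWE-030 and -0.87, -0.37, 0.43 and 0.025 for NRCWE-025. The groups overlapped for Per1, because replicate 5 of NRCWE-030 fell among the values of NRCWE-025. Per3 differed by 0.29 (0.018 to 0.56), Cry2 by 0.28 (0.024 to 0.54) and Cry1 by 0.022 (-0.15 to 0.19), none of them called. Neither probe of Cry1 was well above background on more than 1 array of either material. Nr1d1, the partner of Nr1d2, differed by 0.28 (0.036 to 0.53, not called) as the median of 3 probes, which gave 0.56, 0.28 and 0.16. Bhlhe40 (also called Dec1), a further repressor, differed by 0.64 (0.37 to 0.92), with all arrays of NRCWE-030 above those of NRCWE-025 but an adjusted p of 0.506.

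In the activating arm, the partners of Arntl showed smaller differences. Clock was at 0.32 ± 0.34 (SD, n = 5) with NRCWE-030 and at 0.32 ± 0.27 (SD, n = 4) with NRCWE-025, a difference of -0.0087 (95% interval -0.40 to 0.39). Npas2 differed by -0.20 (-0.38 to -0.0070, not called), in the direction of Arntl. Its probe was well above background on 0 arrays of NRCWE-030 and 2 of NRCWE-025, so this value lies near background. Rora, a nuclear receptor that activates Arntl, differed by 0.20 (-0.10 to 0.51, not called). The differences of Timeless, Csnk1d, Csnk1e and Bhlhe41 lay between -0.045 and 0.067.

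The 13 clock output genes measured had a median difference of 0.19 and none was called. Their 3 PAR bZIP factors all had groups that did not overlap and were higher with NRCWE-030, as for 0.53% of all genes. Dbp showed the largest difference of all 18664 genes, 1.75 (SE 0.23, 95% interval 1.24 to 2.26), or 3.36-fold, and its adjusted p was 0.0502. It stood at 1.46, 1.76, 2.04, 1.99 and 1.79 with NRCWE-030, against 0.73, 0.31, -0.24 and -0.55 with NRCWE-025. The spread within NRCWE-025 (SD 0.57) was larger than within NRCWE-030 (SD 0.23). Hlf was at 2.63, 2.63, 2.73, 2.53 and 2.13 against 1.95, 0.92, 1.42 and 1.21, a difference of 1.15 (0.73 to 1.58, adjusted p = 0.248). Tef differed by 0.38 (0.19 to 0.58, adjusted p = 0.934) as the median of 3 probes, which gave 0.95, 0.38 and 0.22. Nfil3 (also called E4bp4), which competes with these factors for D-boxes, differed by -0.33 (-0.73 to 0.057). Among the other outputs, Nampt, the enzyme that limits the salvage of NAD, differed by 0.32 (0.11 to 0.53, not called) without overlap between the groups. Wee1, Bcl6, Lonrf3 and Cys1 differed by between -0.099 and 0.14. The probe of Wee1 was well above background on 1 array of NRCWE-030 and 0 of NRCWE-025.

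**Figure D2:**
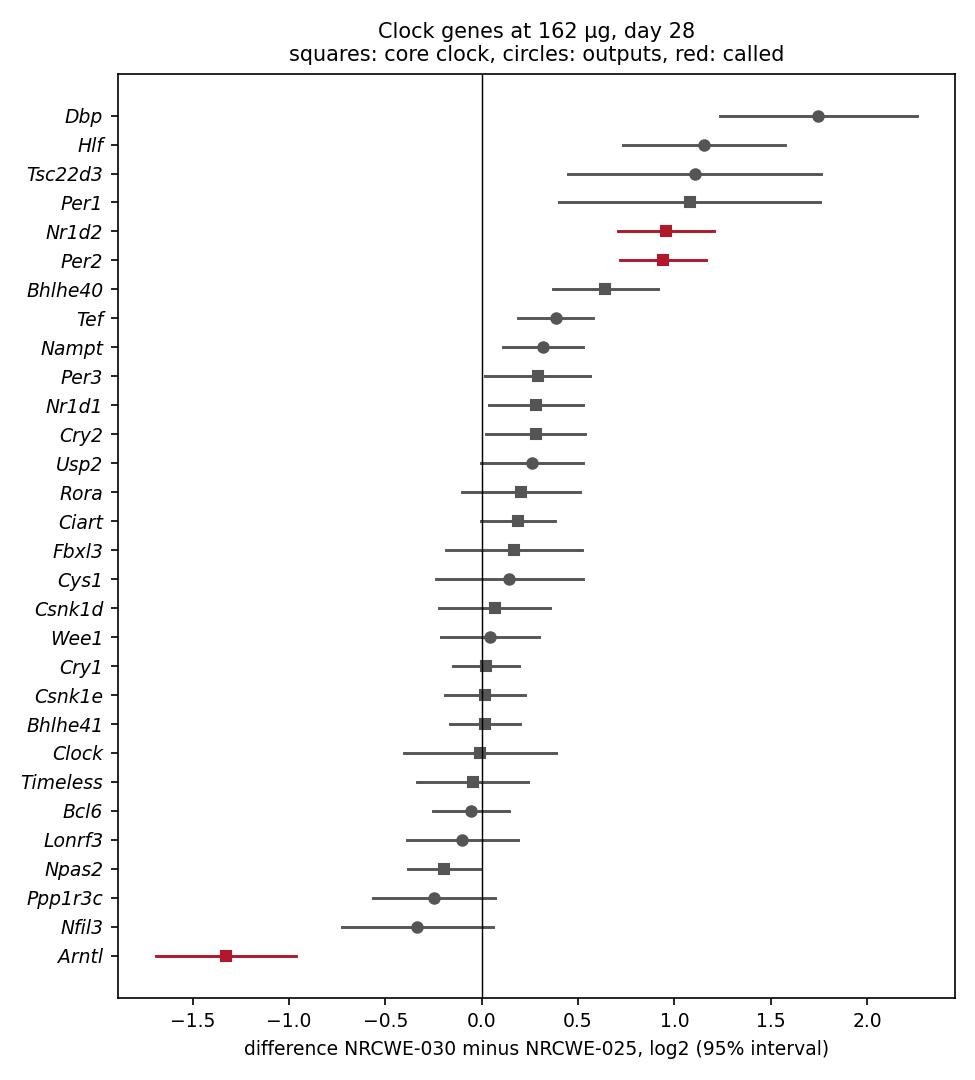
Difference between the materials (NRCWE-030 minus NRCWE-025, log2, horizontal axis) at 162 µg on day 28 for the clock genes, with 95% intervals. Squares are core clock genes, circles are outputs and red marks the called genes. Arntl stands alone at the negative end at -1.33, while Dbp, Hlf, Tsc22d3, Per1, Nr1d2 and Per2 stand near or above 1.

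By the rule for named genes, 20 genes that were not called but whose groups did not overlap were added to the 4 called, which made 24, 15 higher and 9 lower with NRCWE-030. The clock genes Dbp, Hlf, Bhlhe40, Tef and Cipc, which encodes a partner of Clock that inhibits it (0.52, 95% interval 0.29 to 0.76), are among them. Spon2, a secreted protein of the extracellular matrix that binds microbes and integrins, differed by -1.48 (-2.04 to -0.91, adjusted p = 0.298). It was at -1.72, -1.94, -2.33, -2.21 and -1.75 with NRCWE-030 and at -1.11, -0.99, -0.058 and 0.11 with NRCWE-025. Its 2 probes gave -1.34 and -1.61, and no other gene of the 10 in the spondin list differed by more than 0.5. The small GTPase genes Rasl11a (-0.78) and Rnd1 (-0.93) and the gene of the vasodilator peptide adrenomedullin, Adm (-0.70, -0.99 to -0.41), were also among those with lower values. Elastin (Eln), the protein of elastic fibres, differed by -0.44 (-0.63 to -0.24), with 1.44, 1.61, 1.55, 1.44 and 1.56 against 1.76, 2.13, 2.05 and 1.88. Higher values with NRCWE-030 were found for hexokinase 2 (Hk2, 0.48), glutamine synthetase (Glul, 0.59), the copper transporter gene Slc31a1 (0.41) and Herpud1 (0.59), a gene of protein degradation in the endoplasmic reticulum. The remaining ones were Lrrc20 (-0.39), Arrdc4 (-0.52), Man2a1 (0.33), Myo1e (-0.40), Fbxo30 (0.64) and Kpna2 (0.43). The 3 probes of Myo1e gave -0.34, -0.19 and -0.25, each smaller in size than the gene value, a median taken on each array. Those of Fbxo30 gave 0.38, 0.64 and 0.22, the last with an interval that included 0. The adjusted p of the 20 added genes ranged from 0.0502 to 0.934.

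The separation was then followed within slides and with arrays left out. Of the 9 arrays, 2 pairs shared a slide across the materials: replicate 4 of NRCWE-030 with replicate 2 of NRCWE-025, and replicate 5 of NRCWE-030 with replicate 3 of NRCWE-025. Within these 2 pairs the difference was -1.59 and -1.66 for Arntl, 1.03 and 0.63 for Per2, 1.01 and 0.54 for Nr1d2, 0.94 and 0.63 for Tspan4, 1.68 and 2.03 for Dbp and -1.22 and -1.69 for Spon2. Since the groups of these genes did not overlap, the direction within the pairs was fixed and only the sizes are informative. Among these 9 arrays, slide and scan day coincided. Leaving out 1 array at a time left 0 genes called in 6 of the 9 fits (without replicates 1, 2, 3 or 4 of NRCWE-030, or replicates 2 or 4 of NRCWE-025), 1 without replicate 3 of NRCWE-025, 3 without replicate 5 of NRCWE-030 and 7 without replicate 1 of NRCWE-025. The differences themselves ranged in these 9 fits from -1.53 to -1.26 for Arntl, from 0.89 to 1.01 for Per2, from 0.86 to 1.03 for Nr1d2 and from 0.79 to 0.90 for Tspan4. Without replicate 2 of NRCWE-030 and replicate 4 of NRCWE-025 together, no gene was called.

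Vehicle mice of the same day give the background level. Arntl was at 0.45 ± 0.19 (SD, n = 5) in vehicle, at 0.40 ± 0.40 (SD, n = 4) with NRCWE-025 and at -0.92 ± 0.13 (SD, n = 5) with NRCWE-030. Per2 was at 0.25 ± 0.16 in vehicle, 0.051 ± 0.078 with NRCWE-025 and 0.99 ± 0.19 with NRCWE-030. Tspan4 was at -0.83 ± 0.15, -0.92 ± 0.16 and -0.073 ± 0.093 in the same order, and Nr1d2 at 0.82 ± 0.35, 0.79 ± 0.19 and 1.74 ± 0.17. Vehicle was closer to NRCWE-025 than to NRCWE-030 for 20 of the 24 named genes. These genes were picked because the same arrays separate the materials, and the share over all genes was not computed. The count therefore does not show which material departs from vehicle. In a limma fit of all 14 groups, 26 genes were called for NRCWE-030 against vehicle (0.139% of all genes) and 5 for NRCWE-025 against vehicle (0.0268%), 2 contrasts that share the vehicle arrays. They rest on 5 arrays of NRCWE-030 and 4 of NRCWE-025, and the 2 counts were not tested against each other. Trem2, Gpnmb and Spp1, given below, were among the 26 and not among the 5, but none was called between the materials. Arntl differed from vehicle by -1.37 with NRCWE-030 (adjusted p = 0.00208) and by -0.044 with NRCWE-025 (95% interval -0.55 to 0.46, adjusted p = 0.997). Dbp differed from vehicle by 2.27 with NRCWE-030 (adjusted p = 0.00155) and by 0.52 with NRCWE-025 (-0.29 to 1.33, adjusted p = 0.901). Within vehicle, Dbp ranged from -1.36 to 0.55, and 2 of the 5 vehicle mice lay within the range of NRCWE-025.

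Arrays of the lower doses and of day 1 were not used by the direct comparison and share no array with it, but they are not free of its slides. At 18 and at 54 µg on day 28, 4 of 5 arrays of NRCWE-030 and 3 of 5 of NRCWE-025 lay on slides that also held arrays of the 9, whereas none of day 1 did. The part of the slides in the likeness between doses was not tested. At 54 µg on day 28, 15 genes were called between the materials (0.0804% of all genes, limma, fit of 14 groups), and 8 of the 24 named genes were among them. The differences there were -1.22 for Arntl (adjusted p = 0.0114), 0.77 for Per2 (0.00168), 1.15 for Nr1d2 (0.00356), 0.80 for Tspan4 (0.00356), 2.30 for Dbp (0.00168), 1.13 for Hlf (0.0431), -1.14 for Adm (0.0168) and -1.37 for Spon2 (0.0333). At 18 µg on day 28, 0 genes were called (0%, although 1235 had p under 0.05 without adjustment). The differences were -0.39 for Arntl, 0.54 for Per2, 1.03 for Nr1d2, 0.40 for Tspan4 and 1.88 for Dbp. Replicate 5 of NRCWE-030 at 18 µg had the fewest spots above background in Cy3 of all arrays (43.63%). Its recomputed ratios also had the lowest correlation with those that the authors made by LOWESS (0.926). In its group it was highest for Arntl (1.11) and lowest for Dbp (-0.52). No fit left this array out, so its part in the results at 18 µg was not tested. On day 1 at 162 µg, 0 genes were called (0%, with 1145 unadjusted), with -0.85 for Arntl, 0.49 for Per2, 0.28 for Nr1d2, 0.63 for Tspan4 and 0.77 for Dbp. Of the 24 named genes, 24 had the same direction at 54 µg, 23 at 18 µg and 22 on day 1, where the share of all genes with the same direction as at 162 µg on day 28 was 59.3%, 56.3% and 52.1%.

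The difference between the materials at 162 µg was then tested against that at the lower doses and on day 1. For the difference at 162 µg minus the mean of those at 18 and 54 µg, limma called 0 genes (0%, 379 unadjusted), and for day 28 minus day 1 at 162 µg it also called 0 (0%, 596 unadjusted). For Arntl the first of these was -0.52 (95% interval -1.13 to 0.087) and the second -0.48 (-1.17 to 0.22). For Per2 they were 0.28 (-0.060 to 0.62) and 0.45 (0.063 to 0.84), and for Nr1d2 -0.13 (-0.67 to 0.40) and 0.68 (0.068 to 1.29). For all 3 genes the interval against the lower doses included 0, so neither a larger nor a smaller difference at 162 µg was resolved. The lower doses include the array at 18 µg with few Cy3 spots above background, described above, and no fit left that array out. The interval against day 1 left out 0 for Per2 and Nr1d2, but neither was called. All 3 genes were chosen for their difference at 162 µg on day 28. The same arrays enter both contrasts, which favours a larger difference there.

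**Figure D3:**
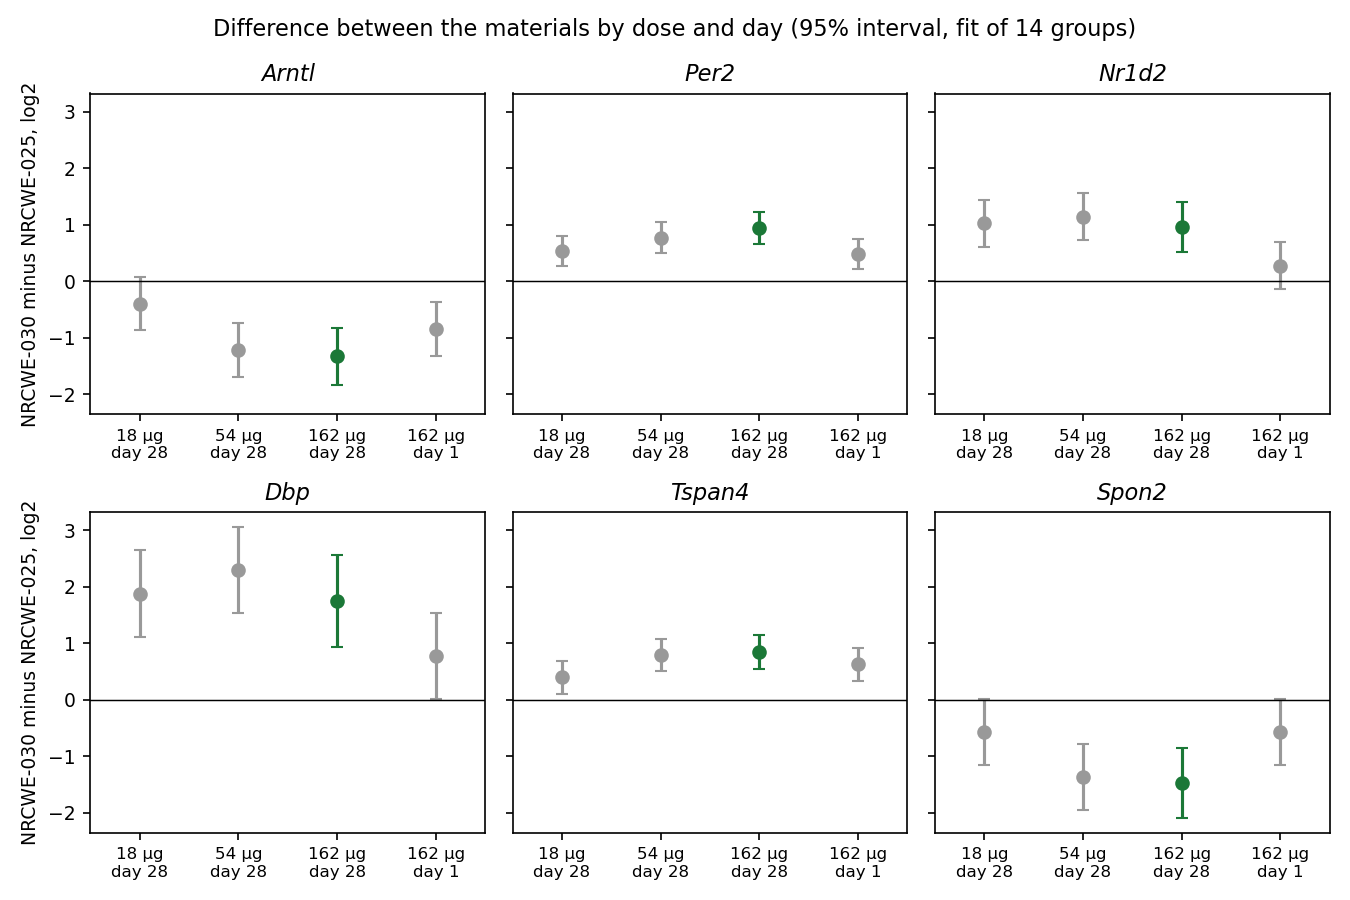
Difference between the materials (NRCWE-030 minus NRCWE-025, log2, vertical axis) for 6 genes at 3 doses on day 28 and at 162 µg on day 1, with 95% intervals from a limma fit of 14 groups. The comparison at 162 µg on day 28 is in green. The sign is the same in all 4 comparisons for each of the 6 genes, with larger sizes at 54 and 162 µg on day 28 than at 18 µg for Arntl, Per2, Tspan4 and Spon2. At 18 µg, replicate 5 of NRCWE-030 lay outside the range of the rest of its group for Arntl, Nr1d2, Dbp and Spon2. It lay on the side of NRCWE-025. This array had the fewest spots above background in Cy3 of all arrays (43.63%), and its part in the smaller sizes at 18 µg was not tested.

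Glucocorticoid and fasting-responsive genes had the largest list median. Tsc22d3 is counted both here and among the clock genes above, so the counts of these lists are not fully separate. Glucocorticoids are adrenal hormones with a daily peak of their own, and they switch on Per1 and Tsc22d3 directly. Of the 19 genes measured, none was called, 18 had a positive difference and 6 had an interval above 0. The median was 0.39 against 0.0022 over all genes, of which 50.9% were positive. In either direction, 2.70% of all genes had an interval that left out 0. Tsc22d3 (GILZ), a mediator of anti-inflammatory steroid action, stood at 2.70, 2.75, 2.56, 2.83 and 1.43 with NRCWE-030 and at 0.82, 1.20, 1.94 and 1.44 with NRCWE-025. As with Per1, 4 arrays of NRCWE-030 lay above all those of NRCWE-025 and replicate 5 lay among them. Klf9, a transcription factor induced by the hormone, differed by 0.75 (95% interval 0.24 to 1.27, not called). Immediate early genes, which respond within minutes to many stimuli, had a median of 0.22 with 18 of 22 positive and none called, led by Klf4 (0.71, -0.0095 to 1.43) and Dusp1 (0.51, -0.60 to 1.62). Heat shock and cold-inducible genes had a median of 0.17 with none of 20 called: Hspa8, the constitutive chaperone of the Hsp70 family, differed by 0.44 (0.082 to 0.79) and Cirbp, the cold-inducible RNA-binding protein, by -0.31 (-0.54 to -0.077). The most negative difference of the list was that of Srsf5 (-0.38, not called). Hspa8 was at -1.83 ± 0.26 (SD, n = 5) with NRCWE-030, -2.27 ± 0.29 (SD, n = 4) with NRCWE-025 and -1.21 ± 0.19 (SD, n = 5) in vehicle, and was called lower than vehicle with NRCWE-025 (-1.06, adjusted p = 0.0321) but not with NRCWE-030 (-0.62, adjusted p = 0.332).

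Inflammation, the response for which NMs are best known in the lung, showed no called gene between the materials. Only 0.0214% of all genes were called, so 0 calls in a list of this size is uninformative, here and in the other lists. Of 21 acute phase genes, 20 had a positive difference, with a median of 0.14. Of 20 inflammatory chemokine genes, 18 had a positive difference and the median was 0.27, with Ccl7 at 0.90 (95% interval -0.76 to 2.55), Ccl2 at 0.79 (-0.54 to 2.12) and Ccl12 at 0.72 (-0.34 to 1.78). The acute phase gene Saa3 ranged from -3.90 to 0.99 within NRCWE-030 and from -3.72 to -0.64 within NRCWE-025, so that its difference of 1.18 had an interval of -0.88 to 3.24. All 30 genes of macrophage activation and lysosomes had a positive difference, with a median of 0.23 and none called. Their mean, relative to the 9 arrays, was -0.16, 0.39, 0.20, -0.32 and 0.58 with NRCWE-030 and 0.023, -0.097, -0.27 and -0.34 with NRCWE-025. Replicates 2, 3 and 5 of NRCWE-030 thus lay above all arrays of NRCWE-025, while replicates 1 and 4 lay within their range. Spp1 (osteopontin) was at -4.07, -2.01, -2.97, -4.25 and -1.71 with NRCWE-030 and at -3.44, -3.92, -4.88 and -4.16 with NRCWE-025, overlapping groups whose difference had an interval of -0.060 to 2.26. Trem2, a lipid receptor of macrophages, differed by 0.70 (-0.43 to 1.83). The lists of chitinase-like (median 0.12, 13 genes), complement (0.12, 20), interferon-stimulated (0.11, 22) and MHC class II genes (0.0041, 10) held no called gene, nor did those of neutrophils (-0.097, 17), B cells (-0.16, 20) and T and NK cells (-0.045, 23). In bulk lung, fewer cells of a type and less RNA per cell cannot be told apart. The interval reached beyond a 2-fold difference on at least 1 side for 12 of the 20 chemokine genes, so a difference of that size on that side was not resolved with 4 and 5 arrays.

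Other groups were measured more tightly. All intervals lay within a 2-fold difference for the 28 collagen and matrix genes (median 0.017), the 29 cell cycle genes (0.047), the 20 Nrf2 antioxidant targets (0.019), the 20 p53 and DNA damage genes (0.050), the 15 surfactant and alveolar type 2 genes (0.12) and the 15 endothelial genes (0.15). None of them was called. Within the matrix list Eln had the largest difference, followed by fibronectin (Fn1, 0.27, -0.038 to 0.57) and periostin (Postn, 0.27, -0.16 to 0.69). Nqo1, the best known Nrf2 target, differed by 0.15 (-0.18 to 0.48), and Cdkn1a (p21), the main p53 target, by 0.39 (-0.010 to 0.79).

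The study derived 10 biclusters of genes from lung disease models in other series. Of their 200 members, 190 were measured here and 0 were called between the materials by limma, against 0.0214% of all genes. At so low a share, 0 calls among 190 genes is uninformative. Bicluster-3, with chemokine genes among its members, had a median difference of 0.22, with 14 of 16 genes positive. The median was 0.20 for bicluster-7 (17 of 19), 0.22 for bicluster-1 (14 of 17) and 0.22 for bicluster-8 (15 of 15, with 3 intervals above 0). Over all genes it was 0.0022, with 50.9% positive and 2.70% with an interval that left out 0. No test was run on these counts. The largest differences in bicluster-7 were Trem2 (0.70), the immunoglobulin joining chain Jchain (0.67, -0.62 to 1.96) and Gpnmb (0.53, -0.13 to 1.19), and in bicluster-8 Ch25h (0.93, 0.15 to 1.71), the enzyme that makes 25-hydroxycholesterol. Bicluster-9, with heart muscle genes among its members, had -0.25, and the medians of the other 5 lay between -0.0055 and 0.10.

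**Figure D4:**
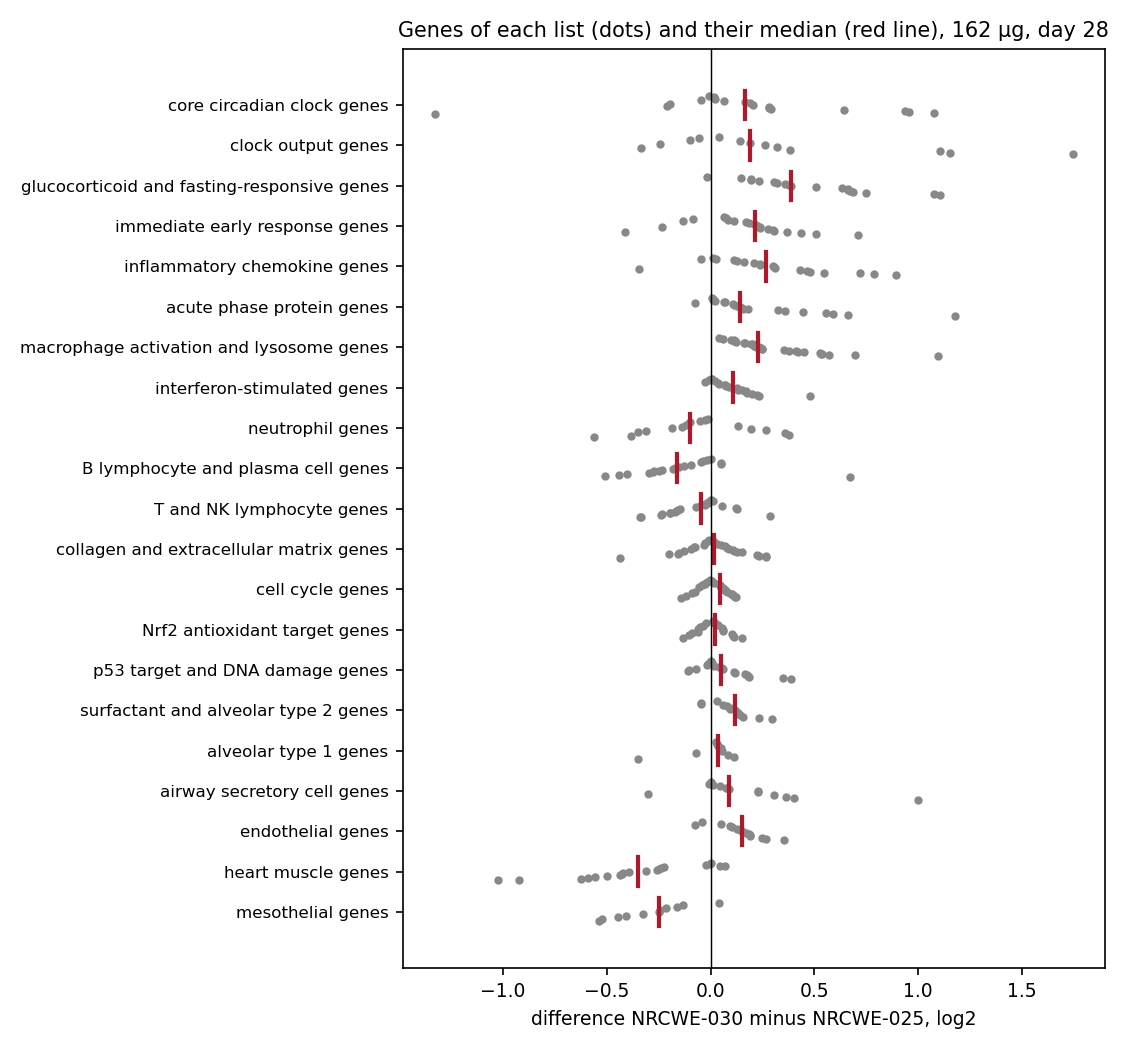
Difference between the materials (NRCWE-030 minus NRCWE-025, log2, horizontal axis) for each gene (dots) of 21 lists, with the median of each list as a red line. Clock lists have a few genes far from 0 with a median near it, while most genes of the glucocorticoid and macrophage lists lie above 0, at medians of 0.39 and 0.23, with none of their genes called.

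The largest variation among the 9 lungs did not follow the material. The first principal component held 37.3% of the variance, with replicates 2 and 5 of NRCWE-030 (15.7 and 21.0) and replicates 1 and 4 of NRCWE-025 (28.5 and 9.32) on one side and the other 5 arrays between -21.5 and -9.51. Heart muscle genes moved with it. Their mean over 20 genes, relative to the 9 arrays, was -0.67, 1.26, -1.29, -1.36 and 1.27 for NRCWE-030 and 1.54, -0.72, -1.02 and 0.99 for NRCWE-025, and the atrial myosin gene Myl7 ranged from 1.34 to 6.45 and from 4.01 to 6.58. Fat genes (Cfd, Adipoq) and airway secretory genes (Muc5b, Bpifb1) led the same component, while the brown fat marker Ucp1 was not above background on any of the 9 arrays. Interferon-stimulated genes were highest on replicate 5 of NRCWE-030 (1.01) and replicate 1 of NRCWE-025 (0.80), and chemokine genes on replicates 5 and 2 of NRCWE-030 (0.86 and 0.65) and replicate 1 of NRCWE-025 (0.58). Mesothelial genes had a median difference of -0.25 and heart muscle genes of -0.35, none of them called. The part of these tissues in the differences between the materials was not tested.

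**Figure D5:**
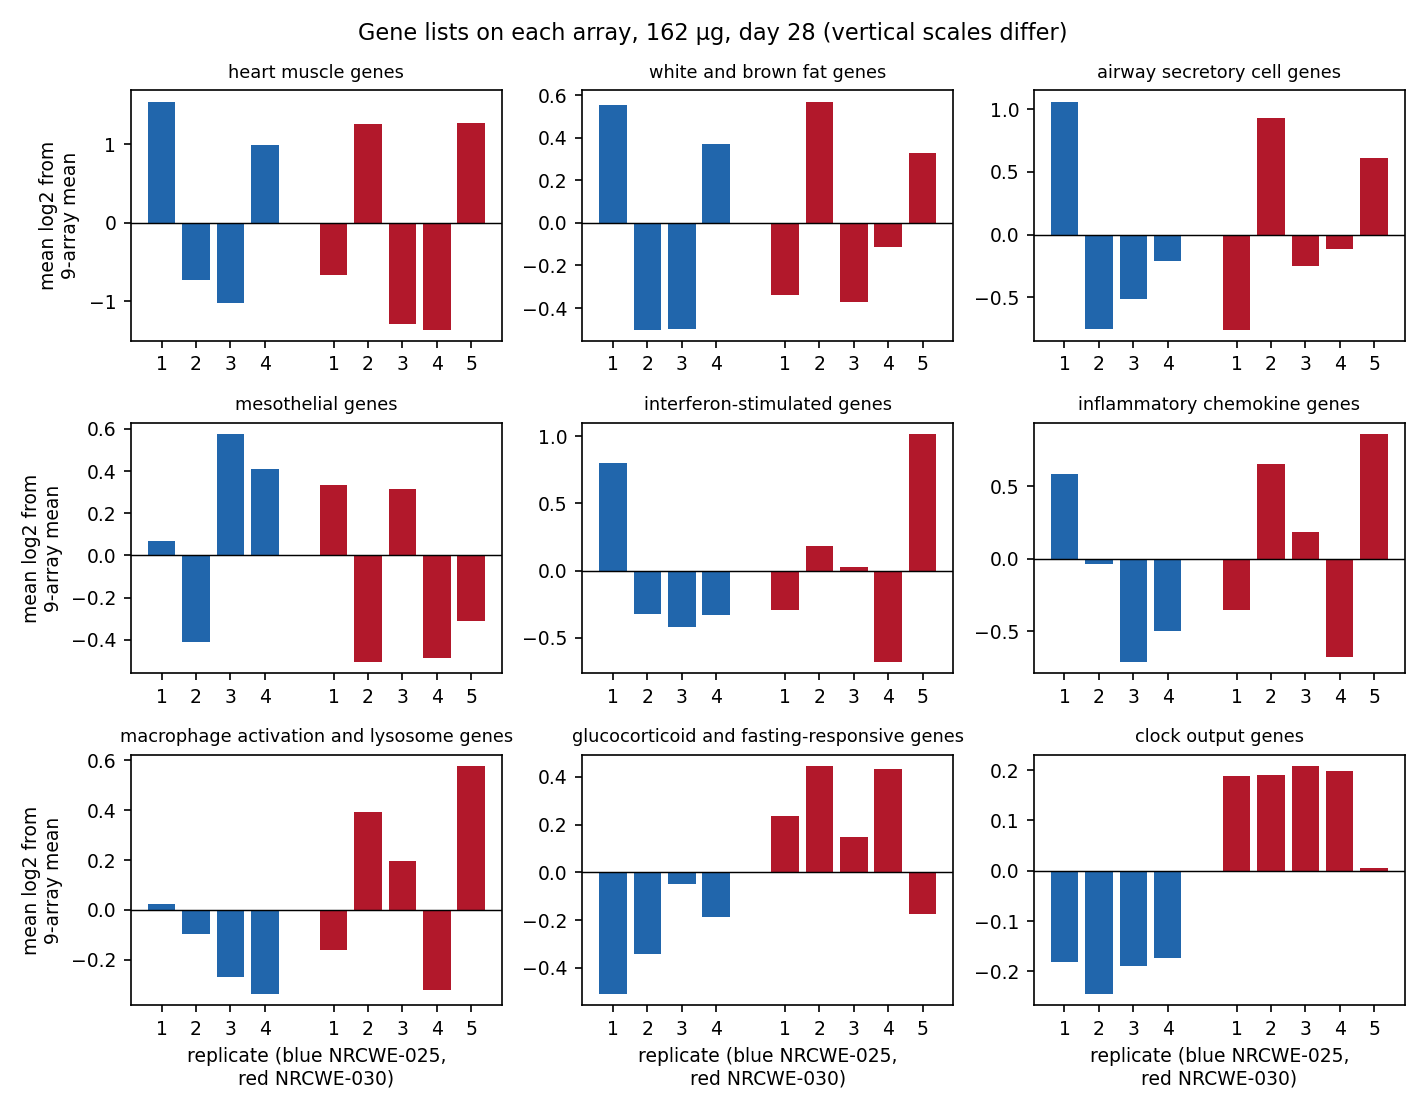
Mean level of 9 gene lists on each of the 9 arrays (bars), as the log2 distance from the mean of the 9 arrays (vertical axis, scales differ between panels), by replicate, with NRCWE-025 in blue and NRCWE-030 in red. Heart muscle, fat and airway genes are high on the same arrays of both materials, replicates 2 and 5 of NRCWE-030 and 1 of NRCWE-025, whereas clock output genes are above 0 on the red arrays and below it on the blue ones, with replicate 5 of NRCWE-030 closest to 0.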

How the data were processed

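Whole-lung RNA of each mouse (Cy5) was hybridised with reference RNA (Cy3) on Agilent 2-colour arrays, and 69 arrays fell into 14 groups by the material, dose and day in their labels. The deposited scanner files (Agilent Feature Extraction 11.0.1.1, per the file headers) hold median spot and local background intensity for each colour. They also hold a log10 ratio of Cy5 over Cy3, made by the software after background subtraction and dye normalization, and flags of 0 or 1 that are neither measured nor scaled (other values, per the file headers). A second deposited table, the series matrix, gives log2 ratios that the authors made by LOWESS.

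Values were recomputed with limma 3.58.1 in R 4.3.3 (data.table, matplotlib for plots). Where the scanner marked a local background as an outlier, the median of the unmarked ones on that array took its place, and normexp (offset 50) followed. Loess was run within arrays, spots marked as outliers were left out, and medians were taken over the spots of a probe and the probes of a symbol. Of 41174 probes, 27501 (66.8%) had a RefSeq symbol. Of 18757 genes, 93 with a missing value were left out and 18664 tested. The 9 arrays of 162 µg on day 28 (5 and 4) were fitted alone, and the other contrasts in 1 fit of 14 groups. Tests were two-sided, with Benjamini-Hochberg adjustment over all genes in each contrast and calls at an adjusted p under 0.05, and every adjusted p is from limma. The fits were tested on simulated data.

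Named genes are those called (up to 15 a direction) and, up to 24, those with the smallest p whose groups do not overlap, then the called genes of each of 45 lists or, failing these, up to 3 with the largest difference. Of 856 list entries 814 were measured. Genes given in earlier text on these data were always included, and others named for their role (such as the clock genes and Cirbp) were chosen after their values were seen. The genes, lists and comparison were chosen with earlier results of these data known. Replicates are mice, numbered here in the order of deposition. Array number limits the precision. A gene of the core clock list is counted but not reported here by itself. Alternatives were the background correction, normalization, probe choice, dim genes, the prior variance and the groups in the fit. Slide or scan day as a block, and each of the 9 arrays left out, were further ones.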

Additional observations from a re-analysis of the deposited data

Results flagged for a closer look

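In 5 of 56 groups of values tested for a lone sample, 1 array lay far from the rest of its group, and chance alone gives about 1 in 20. For Nr1d2 these were replicate 5 of NRCWE-030 (1.44) and replicate 4 of NRCWE-025 (0.51), both the lowest of their group. Replicate 1 of NRCWE-025 had a lower Arntl value (-0.20) than the other 3. Herpud1 was low on replicate 4 of NRCWE-025 (0.66) and Kpna2 was high on replicate 3 of NRCWE-030 (-1.64).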

How the results depend on the processing

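The 4 genes called between the materials became 0 with no background correction, 0 with the scanner's log ratio, 0 after scaling between arrays, 2 with the series matrix values, 7 in a fit of the 7 groups of day 28, 7 with slide as a fixed block in that fit (3 of the 4 among them, Nr1d2 lost) and 10 with slide as a random block (all 4 among them). Leaving out 1 array at a time gave 0 to 7 genes, and leaving out the array of each material with the fewest spots above background, a choice made after seeing the data, gave 0. The cause was not tested, beyond the smaller number of arrays in these last fits. The counts for the 2 tests against lower doses and day 1 stayed at 0 under all their alternatives. Over 25 genes and 575 gene-by-setting values the direction never reversed. Only the 4 called genes could lose a call, and this happened in 50 of these values. Nr1d2 lost its call in 16 of 23 settings, Arntl in 13, Per2 in 11 and Tspan4 in 10. In 17 values a gene that had not been called passed the threshold. Dbp passed in 5 of 23 settings. No paired analysis by replicate number was possible because the labels give the mice none, and slide was used as the block instead. With 4 and 5 arrays, genes that vary strongly between mice, such as Saa3 or Ccl7, have intervals wider than a 4-fold range.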

Other observations

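Among the cytochrome P450 genes, Cyp2a5 and Cyp2a4, which encode closely related enzymes that oxidise coumarin and steroids, had the largest differences, although neither was called. Cyp2a5 was at 5.41, 7.27, 5.47, 6.03 and 6.24 with NRCWE-030 and at 6.71, 4.06, 3.57 and 4.15 with NRCWE-025, a difference of 1.46 (95% interval 0.15 to 2.77), with replicate 1 of NRCWE-025 inside the range of NRCWE-030. Cyp2a4 differed by 1.53 (-0.076 to 3.13). They are near-identical paralogs, and their separate values are uncertain. The 19 P450 genes had a median difference of 0.086. Vehicle mice ranged from 3.63 to 6.16 for Cyp2a5, so the range within vehicle was wider than the difference between the materials.

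The 21 genes of cholesterol synthesis and oxysterols had a median difference of 0.013, with Ch25h (0.93) far from the rest, followed by the transporter gene Abcg1 (0.27, 95% interval -0.026 to 0.56). Metallothionein and zinc transporter genes had a median of 0.080, led by the zinc exporter gene Slc30a1 (0.37, 0.099 to 0.64) and Mt2 (0.32, -0.034 to 0.68). Red blood cell genes (median 0.017), ciliated cell genes (-0.0084), smooth muscle genes (0.025) and genes of mast cells and platelets (-0.0083) differed little on the median, with no gene called in any of them.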
